A study of Mus musculus with 12 samples.

Results

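The genes described here are 49 components of the DNA replication machinery, taken by symbol from a list of origin licensing, helicase, polymerase, clamp, single strand, nucleotide supply and fork genes. The genes lie on 16 chromosomes. All 49 were present among the 24421 genes of the deposited table, and all 49 passed the filter on low values. RNA was sequenced from thymocytes sorted from mouse embryos of stage E16.5 (E17.5 where the labels describe the treatment; E is the embryonic day) on a C57BL/6 background. Every group was Rag1KO and carried Bcl6fl/fl alleles. KO libraries came from LckCre+ embryos and control libraries from LckCre- embryos, so the presence of Cre and the loss of Bcl6 cannot be told apart. LckCre expresses Cre from the promoter of Lck, a kinase gene of the T lineage. The populations were CD25-positive cells of unstimulated thymi, ISP cells (CD8 immature single-positive, without CD4) and DP cells (double-positive for CD4 and CD8), with 2 KO and 2 control libraries of each, 12 in all. ISP and DP cells were sorted from thymi after a culture of 2 days in which an antibody to CD3 was present at 1 µg/ml. No label tells whether both libraries of a group are from different embryos or cultures, so p-values measure the spread between these samples, which may be technical.

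Origins are licensed for replication in G1, when the origin recognition complex, Cdc6 and Cdt1 load the MCM helicase ring onto them. In S phase a kinase made of Cdc7 and Dbf4, together with Cdc45 and the GINS complex, turns the ring into an active helicase. Primase and the polymerases then copy the strands behind it. The clamp PCNA holds some of the polymerases, and not primase, to DNA. Thymocytes that lack Rag1 cannot rearrange a T cell receptor gene and stop at the CD25-positive stage. A signal through CD3 replaces the missing pre-TCR signal. Cells that receive such a signal divide and pass through the ISP stage to the DP stage, where they later leave the cell cycle. BCL6 is a transcriptional repressor.

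Recovered reads ran from 9657633 to 14227980 per library, and 10241 to 10568 genes reached 1 RPKM (reads scaled by gene length and by library size). The sorting markers followed the titles. Cd4 was 190.6 to 344.1 RPKM in DP libraries by title and 13.9 to 20.5 RPKM in ISP libraries by title, and Il2ra, the CD25 gene, was 537.6 to 603.3 RPKM in the CD25 libraries. For 6 of the 8 anti-CD3 libraries, however, the name of the sequencing library differs from the title in population or genotype. Grouping by those names left 0 members called between DP and ISP, and 45 members were called lower in KO in DP cells. Under the names, the anti-CD3 KO groups hold only libraries titled DP and the control groups only libraries titled ISP, of both genotypes. Their genotype contrast is thus the contrast of DP with ISP by title. Every result on ISP and DP cells below rests on the titles, for genotype as well as for population, and the sorting markers do not test the genotype. The RPKM of Bcl6 over its whole length does not test the deletion, and was 87.7 and 111.3 in DP KO libraries, against 72.5 and 70.0 in DP control libraries.

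All 49 replication genes were detected in all 12 libraries, from 1.95 RPKM for the lowest value of Ung to 763.9 RPKM for the highest value of Rrm2. Together the 49 genes took 1.064% and 1.033% of the recovered reads in CD25 KO libraries and 1.019% and 1.075% in CD25 control libraries. In ISP cells the share was 1.537% and 1.503% in KO libraries and 1.59% and 1.604% in control libraries. In DP cells it was 0.953% and 1.03% in KO libraries, against 0.736% and 0.746% in control libraries. The machinery thus peaked in ISP cells, and the genotypes stood apart in DP cells, where the KO libraries lay above both control libraries. Fewer cycling cells and less RNA per cell cannot be told apart in such bulk samples.

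**Figure D1:**
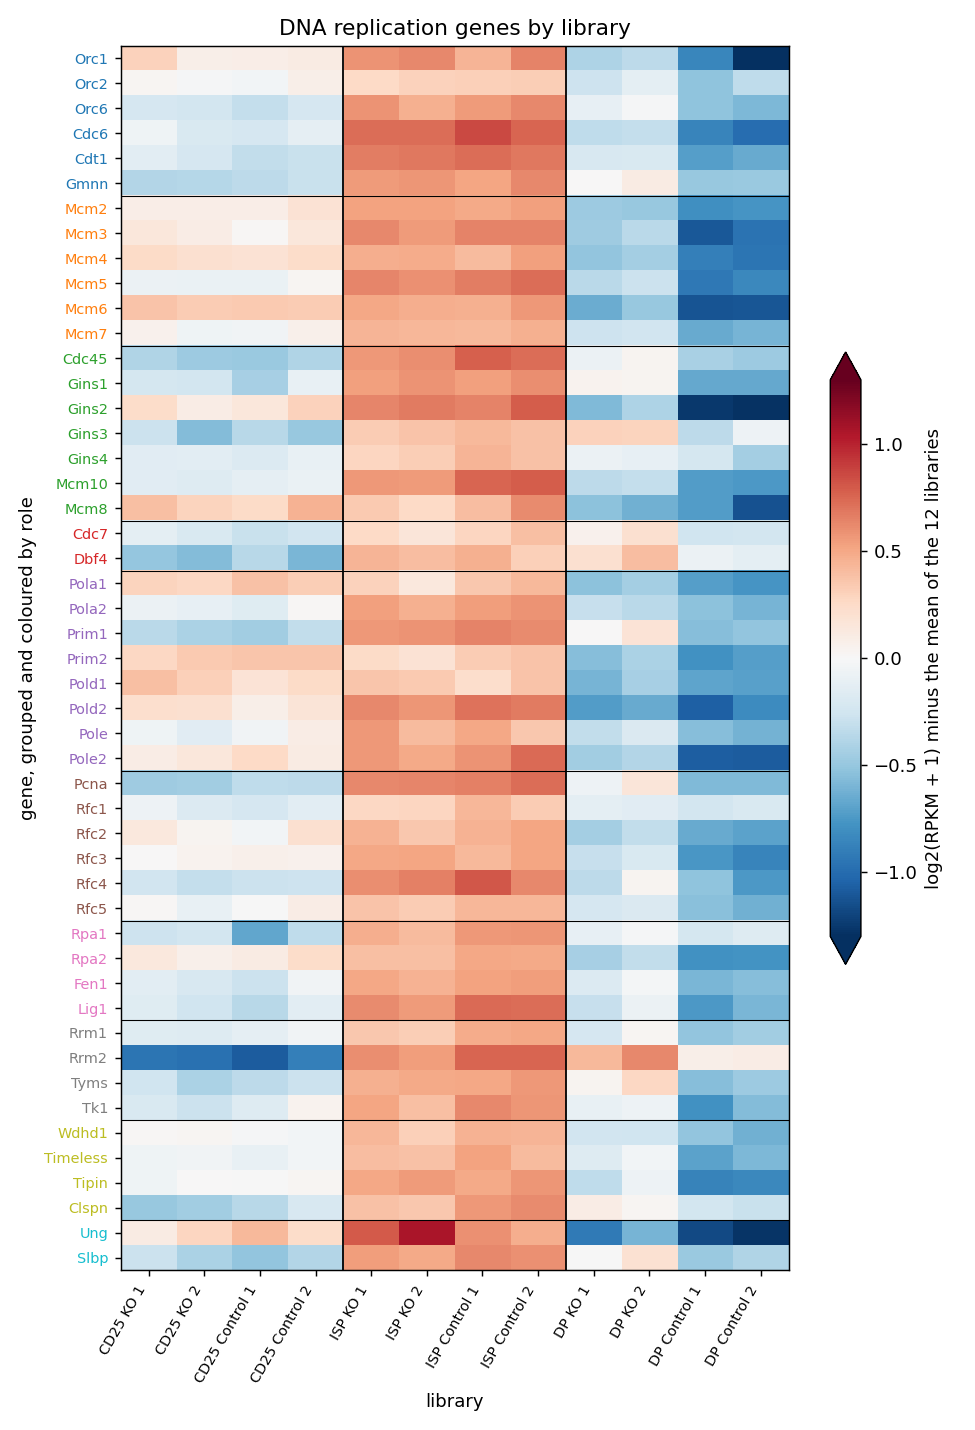
Level of the 49 replication genes (rows, grouped and coloured by role) in the 12 libraries (columns; CD25, ISP and DP divided by lines). Colour is log2(RPKM + 1) minus the mean of the gene over the 12 libraries. ISP columns are red for all genes, DP control columns are the bluest for most, and Rrm2 is the one gene whose CD25 columns are a deep blue.

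The first comparison was between ISP and CD25 cells. ISP cells came from cultures with the antibody to CD3 and CD25 cells from unstimulated thymi, so population, culture and stimulation cannot be told apart. 45 of the 49 replication genes rose in ISP cells and 0 fell. Among all 11303 genes tested, 33.1% were called higher and 30.9% lower, so movement as such was common at this step and its single direction was what the members showed. Their median difference was 0.51 on the log2(RPKM + 1) scale, which understates the change of low genes, and that of all genes was 0.01. A gene was called when the Benjamini-Hochberg adjusted p of limma, over all genes, was under 0.05. Markers of other cell types moved with the population. Of 7 NK and innate lymphoid markers tested, 6 were called higher in ISP cells and 1 lower (median 2.04), and the summed RPKM of the 8 listed was 1034 to 1251 in ISP and 590.9 to 779.8 in CD25 libraries. Their part in this comparison and in the next was not tested.

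The largest rise of a single gene was in nucleotide supply. By role, the median of nucleotide supply was 0.75, and licensing had the highest median, 0.86. Rrm2, the small subunit of ribonucleotide reductase, which makes deoxyribonucleotides and is the part that varies through the cell cycle, had 687.2 and 657.0 RPKM in ISP KO and 763.9 and 762.6 RPKM in ISP control libraries, against 234.1 and 231.0 RPKM in CD25 KO and 213.4 and 244.2 RPKM in CD25 control libraries. The ISP libraries all lay above every CD25 library, and the log2 difference was 1.63 ± 0.05 (SE; adjusted p = 2.2e-10 in limma). Rrm1, the large subunit, moved less (0.54 ± 0.05). The ratio of Rrm2 to Rrm1, both per length, was 3.16 to 3.28 in ISP libraries and 1.39 to 1.57 in CD25 libraries. Tyms, which makes thymidylate, and Tk1, which salvages thymidine, rose by 0.83 and 0.68.

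Licensing factors rose together, all 6 of 6. Gmnn, whose protein geminin blocks Cdt1 outside G1, had a mean of 249.6 ± 2.2 RPKM in ISP KO and 250.9 ± 13.9 in ISP control libraries, against 129.8 ± 1.0 in CD25 KO and 135.3 ± 3.3 in CD25 control libraries (SD, n = 2 each). Cdt1 itself and Cdc6, the loading factors, rose by 0.93 and 0.91. The origin-binding subunits moved by less, with 0.43 for Orc1 and 0.28 for Orc2, while Orc6 rose by 0.80.

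The 6 genes of the MCM ring all rose, by a median of 0.42, and unevenly. Mcm5 rose the most (0.71) and Mcm6 the least (0.16 ± 0.04, adjusted p = 0.0072 in limma). Mcm6 was also the most abundant of the 6 in every CD25 and ISP library, with 410.3 and 402.7 RPKM in ISP KO and 400.4 and 428.8 RPKM in ISP control libraries, against 374.6 and 365.1 RPKM in CD25 KO and 366.5 and 365.7 RPKM in CD25 control libraries. Its call was lost on plain total scaling (difference 0.09, adjusted p = 0.063). Cdc45, which joins the ring to form the active helicase, rose by 1.10 ± 0.05 (adjusted p = 1.4e-09 in limma). It had 84.7 and 86.9 RPKM in ISP KO and 98.0 and 94.7 RPKM in ISP control libraries, against 43.3 and 40.7 RPKM in CD25 KO and 40.4 and 43.3 RPKM in CD25 control libraries.

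The polymerase genes split. Prim1, the catalytic subunit of primase, rose by 0.99 ± 0.05 (adjusted p = 5.4e-09 in limma), with 192.3 to 203.1 RPKM in ISP libraries against 94.0 to 103.4 RPKM in CD25 libraries. Its partner Prim2 did not pass the test, with a difference of -0.05. Neither did Pola1, the catalytic subunit of polymerase alpha (-0.01), Pold1, that of polymerase delta (0.05), nor Mcm8, a relative of the ring that works in homologous recombination (0.06). These 4 were the only members not called, at adjusted p between 0.398 and 0.845 in limma. The accessory subunits Pola2 (0.62), Pold2 (0.48) and Pole2 (0.44) were called higher, as was Pole (0.50). The ratio of Prim1 to Prim2 was 3.12 to 3.46 in ISP libraries and 1.49 to 1.71 in CD25 libraries.

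At the fork, Pcna, the sliding clamp, had 497.3 and 501.7 RPKM in ISP KO and 505.6 and 531.1 RPKM in ISP control libraries, against 233.5 and 234.7 RPKM in CD25 KO and 255.4 and 253.7 RPKM in CD25 control libraries. The populations did not overlap (1.06 ± 0.05, adjusted p = 2.9e-09 in limma). The 5 subunits of replication factor C, which loads the clamp, rose by 0.36 (Rfc2) to 0.95 (Rfc4). Rpa1, the large subunit of the protein that coats single strands, rose by 0.88 and Rpa2 by 0.30. Lig1 and Fen1, which join and trim Okazaki fragments, rose by 0.88 and 0.67. Slbp, which binds the stem loop of histone mRNAs, rose by 0.96.

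**Figure D2:**
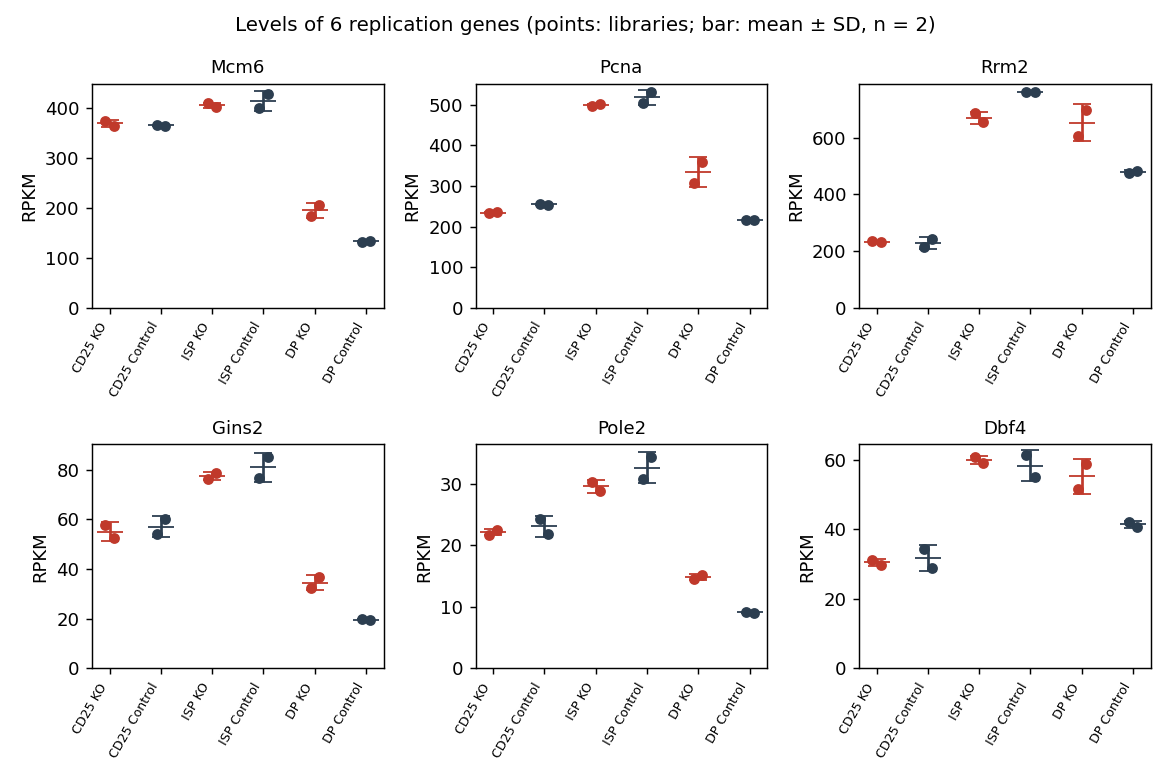
RPKM of 6 replication genes by group (KO red, control dark; points are libraries, bars the mean ± SD of n = 2). All axes start at 0. Mcm6, Pcna, Gins2 and Pole2 are lowest in DP control libraries, while Rrm2 and Dbf4 stay above their CD25 level in DP cells of both genotypes.

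The next comparison was between DP and ISP cells. All 49 replication genes fell in DP cells, where 35% of all genes were called lower and 35.6% higher. The median difference was -0.90 against 0.01 over all genes tested, and the adjusted p in limma was at most 0.0017 for any member. The values did not overlap between the 4 DP and the 4 ISP libraries for 46 of the 49 genes, all but Cdc7, Dbf4 and Rrm2. Of all genes tested 58.5% had values that did not overlap, in either direction. The ISP libraries are shared with the comparison above, so a high level in ISP enters both. All 7 NK and innate lymphoid markers tested were called lower in DP cells (median -2.97), with a sum of 112.0 to 217.0 RPKM in DP and 1034 to 1251 RPKM in ISP libraries. Both mast cell markers tested, Cpa3 and Kit, were lower too (median -2.22). The sum of the 6 listed was 0.853 to 3.17 RPKM in DP and 13.1 to 34.5 RPKM in ISP libraries. Most of the ISP sum came from Cpa3 (10.0 to 28.6 RPKM). Mcpt4, Cma1, Tpsb2 and Fcer1a were at most 1.54 RPKM in any library, so the sum says little about mast cells.

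The falls differed by role. The MCM ring fell the most of the larger groups (median -1.21), followed by licensing, then clamp and loader (-0.95), single strand and Okazaki genes (-0.93), polymerases (-0.92) and helicase partners (-0.90). Nucleotide supply had a median of -0.69 and the firing kinase genes -0.32. Mcm6, the most abundant ring gene in ISP cells, had 184.5 and 206.2 RPKM in DP KO and 132.5 and 133.6 RPKM in DP control libraries. Its difference from ISP was -1.34 ± 0.04 (adjusted p = 2.6e-10 in limma). Mcm7 took over as the highest ring gene in both DP control libraries (142.8 and 148.5 RPKM) and in DP KO library 1 (187.4 RPKM). In DP KO library 2 Mcm6 stayed highest. Mcm4 was lowest in all DP libraries, at 63.0 and 60.3 RPKM in control libraries.

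The single largest fall was that of Ung, the uracil glycosylase that removes uracil from DNA. Ung is a low gene here, with 2.80 and 3.71 RPKM in DP KO and 2.17 and 1.95 RPKM in DP control libraries, against 11.4 and 13.97 RPKM in ISP KO and 9.78 and 8.91 RPKM in ISP control libraries. All DP values lay below all ISP values (-1.72 ± 0.10, adjusted p = 1.2e-08 in limma). Gins2, a subunit of GINS, followed with -1.57 ± 0.06 (adjusted p = 5.4e-10), then Pold2 with -1.46 ± 0.06 (adjusted p = 7.0e-10) and Cdc6 with -1.39 ± 0.05 (adjusted p = 7.5e-10 in limma).

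At the other end were the kinase pair and Rrm2. Dbf4, the activating subunit that gives Cdc7 its activity, had 51.6 and 58.7 RPKM in DP KO and 42.0 and 40.7 RPKM in DP control libraries, against 60.7 and 59.0 RPKM in ISP KO and 61.3 and 55.0 RPKM in ISP control libraries. Only DP KO library 2 reached into the ISP range. The differences were -0.30 ± 0.06 for Dbf4, -0.33 ± 0.05 for Cdc7, -0.33 ± 0.08 for Gins3 and -0.36 ± 0.05 for Rrm2, at adjusted p of 9.8e-04, 6.8e-05, 0.0017 and 7.5e-05 in limma. Gins3 and Gins2 belong to the same 4-subunit complex, and the fall of Gins3 was the smallest and that of Gins2 the largest of its genes.

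DP cells were also set against the unstimulated CD25 cells, with culture and stimulation again not to be told apart from population. Averaged over the genotypes, most of the machinery was below its CD25 level in DP cells. Between DP and CD25 cells 12 members were higher and 32 lower, and 5 (Orc6, Gins1, Gins4, Rfc1 and Rfc4) were not called. Over all genes 37.3% were called higher and 38.4% lower. All 6 ring genes were lower, from -0.45 for Mcm7 to -1.19 ± 0.04 for Mcm6 (adjusted p = 1.5e-10 in limma). Ung was lower by a log2 difference of -1.25 ± 0.10 (adjusted p = 1.4e-07). Rrm2 was higher, with 607.1 and 699.3 RPKM in DP KO and 476.7 and 483.8 RPKM in DP control libraries, above every CD25 library (1.28 ± 0.05, adjusted p = 5.6e-10 in limma). Dbf4 (0.61 ± 0.06, adjusted p = 2.1e-06) and Gins3 (0.47 ± 0.08, adjusted p = 1.1e-04 in limma) were the next highest. The other 9 were higher by 0.13 to 0.27 and comprised Gmnn, Cdc45, Cdc7, Prim1, Pcna, Rpa1, Tyms, Clspn and Slbp. Of these 9 only Rpa1 was called higher in the control libraries alone, in the split by genotype below.

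These averages were also taken apart by genotype, in a split made after the values were seen. In KO libraries 13 members were higher in DP than in CD25 cells and 24 lower, where 32.3% of all genes were called higher and 33.2% lower. In control libraries 3 members were higher and 39 lower, where 33.2% of all genes were called higher and 35.5% lower. The 3 were Rrm2, Dbf4 and Rpa1. 5 genes were called higher in KO and lower in control libraries, namely Orc6, Gmnn, Gins1, Pcna and Tyms. How many of all genes were called in opposite directions was not counted. Whether the difference between DP and CD25 cells depends on genotype was not tested. Pcna averaged 334.1 RPKM in DP KO libraries, against 234.1 RPKM in CD25 KO libraries. In control libraries it averaged 215.6 RPKM in DP and 254.5 RPKM in CD25 cells.

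Promoter sequence was examined because the members moved together. The RefSeq promoter table (GRCm38.p6, 250 bases before to 50 after each start) held 40 of the 49 genes, in 47 windows. E2F factors drive many genes of S phase from sites whose forms include TTTCGCGC and TTTGGCGC, the only forms searched here. These letters, on either strand, were present in 12 of the 40 genes (30.0%) and in 25.5% of the windows, against 1.9% of 8472 other tested genes and 1.59% of their windows. They were in 0.929% of all 27025 genes of the promoter table. CCAAT, on either strand, was in 24 of the 40 members and in 43.2% of the other tested genes, and the GC box GGGCGG in 72.5% of the members and 69.3% of the others. The 12 genes were Orc1, Cdt1, Mcm3, Mcm5, Mcm6, Mcm7, Mcm8, Pola1, Pole2, Rfc3, Lig1 and Clspn. A match is a description of the letters and not a site shown to be bound. A gene without a match can still hold another form of the site.

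The 12 genes with a match had a median difference between DP and ISP of -1.15, against -0.83 for the 28 without. Between ISP and CD25 the order was the other way, 0.44 with and 0.67 without a match. No test was made of either. 4 stretches that hold the letters are printed for that reason, chosen after the values were seen, with the matches in capitals; in Mcm5 and at the first place in Mcm6 a pair of matches on opposite strands overlap. Each is 120 bases, 5′ to 3′ on the strand of the gene.

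Mcm5 (chr8:75109316-75109435, + strand): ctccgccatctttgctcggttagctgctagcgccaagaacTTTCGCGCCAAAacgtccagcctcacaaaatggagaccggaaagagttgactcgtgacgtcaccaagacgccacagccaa
Mcm6 (chr1:128359736-128359855, - strand): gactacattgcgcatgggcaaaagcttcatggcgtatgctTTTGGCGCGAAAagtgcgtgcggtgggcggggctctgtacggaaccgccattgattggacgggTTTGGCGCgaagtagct
Orc1 (chr4:108579354-108579473, + strand): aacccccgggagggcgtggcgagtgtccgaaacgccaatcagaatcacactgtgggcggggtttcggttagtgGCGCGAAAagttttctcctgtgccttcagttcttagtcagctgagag
Rfc3 (chr5:151651189-151651308, - strand): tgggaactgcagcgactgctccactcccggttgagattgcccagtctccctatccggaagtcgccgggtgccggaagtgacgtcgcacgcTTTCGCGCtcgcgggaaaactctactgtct

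The 6 promoters of the members with the largest (Ung, Pold2, Cdc6) and the smallest (Cdc7, Gins3, Dbf4) differences between DP and ISP among the genes of that table held neither TTTCGCGC nor TTTGGCGC in their windows. Other forms of the site were not searched, so their absence from these promoters is not shown. They are shown from 100 bases before to 20 after the start, so that both ends of the range can be seen, and nothing is in capitals.

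Ung (chr5:114130335-114130454, + strand): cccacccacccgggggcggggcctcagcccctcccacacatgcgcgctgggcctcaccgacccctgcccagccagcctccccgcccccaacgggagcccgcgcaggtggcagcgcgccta
Pold2 (chr11:5878237-5878356, - strand): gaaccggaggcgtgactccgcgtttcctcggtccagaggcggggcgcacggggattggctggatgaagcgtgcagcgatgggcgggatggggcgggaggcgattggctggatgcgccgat
Cdc6 (chr11:98908051-98908170, + strand): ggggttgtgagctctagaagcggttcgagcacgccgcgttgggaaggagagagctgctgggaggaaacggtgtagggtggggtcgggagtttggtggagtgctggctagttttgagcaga
Cdc7 (chr5:106964222-106964341, + strand): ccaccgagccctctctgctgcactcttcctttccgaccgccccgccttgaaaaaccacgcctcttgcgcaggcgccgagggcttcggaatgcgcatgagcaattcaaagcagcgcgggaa
Gins3 (chr8:95633459-95633578, + strand): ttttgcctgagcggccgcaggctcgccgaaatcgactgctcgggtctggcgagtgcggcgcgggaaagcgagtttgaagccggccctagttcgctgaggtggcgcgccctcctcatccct
Dbf4 (chr5:8422697-8422816, - strand): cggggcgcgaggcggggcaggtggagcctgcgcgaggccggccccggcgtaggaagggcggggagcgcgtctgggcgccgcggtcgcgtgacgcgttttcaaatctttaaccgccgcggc

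The question of the study was what loss of Bcl6 changes. In CD25 cells 0 of the 49 replication genes differed between KO and control in limma, and 0 had an unadjusted p under 0.05. Few genes of any kind were called there, 2 of 10636 (0.0188%), although 972 had an unadjusted p under 0.05. The members' log2 differences ran from -0.19 ± 0.10 for Clspn to 0.25 ± 0.11 for Rpa1 with a median of -0.01. Rpa1 had 93.3 and 94.8 RPKM in CD25 KO libraries and 70.1 and 89.3 RPKM in CD25 control libraries, its 95% interval ran from -0.0039 to 0.50, and its adjusted p was 0.55 in limma. The 95% intervals of the 49 genes lay between -0.43 and 0.50, so differences inside those bounds are not excluded for all of them by these 4 libraries.

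In ISP cells 0 of the 49 genes passed the test either, where 0.354% of all genes did (40 genes, with 1494 at an unadjusted p under 0.05). The differences were small and mostly negative, 41 of 49, with a median of -0.08 against -0.01 over all genes. 5 members had an unadjusted p under 0.05. Mcm10, which helps to activate the helicase, had 27.5 and 27.3 RPKM in ISP KO libraries and 31.6 and 32.4 RPKM in ISP control libraries (-0.21 ± 0.07, adjusted p = 0.17 in limma). Ung went the other way, with 11.4 and 13.97 RPKM in ISP KO and 9.78 and 8.91 RPKM in ISP control libraries (0.40 ± 0.14, adjusted p = 0.22).

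In DP cells the genotypes differed. 44 of the 49 replication genes were higher in KO and 0 were lower, where 14.1% of all genes were called higher and 7.78% lower. All 49 differences were positive, with a median of 0.44 against 0.00 over all genes, and every gene had both KO libraries above both control libraries, as 62.3% of all genes tested had their genotypes apart in one direction or the other. Mean RPKM in KO was 1.06 to 1.76 times that in control, with a median of 1.36 times. The 5 genes not called were Orc2 (adjusted p = 0.061), Mcm8 (0.090), Pold1 (0.11), Rpa1 (0.32) and Rfc1 (0.39 in limma).

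**Figure D3:**
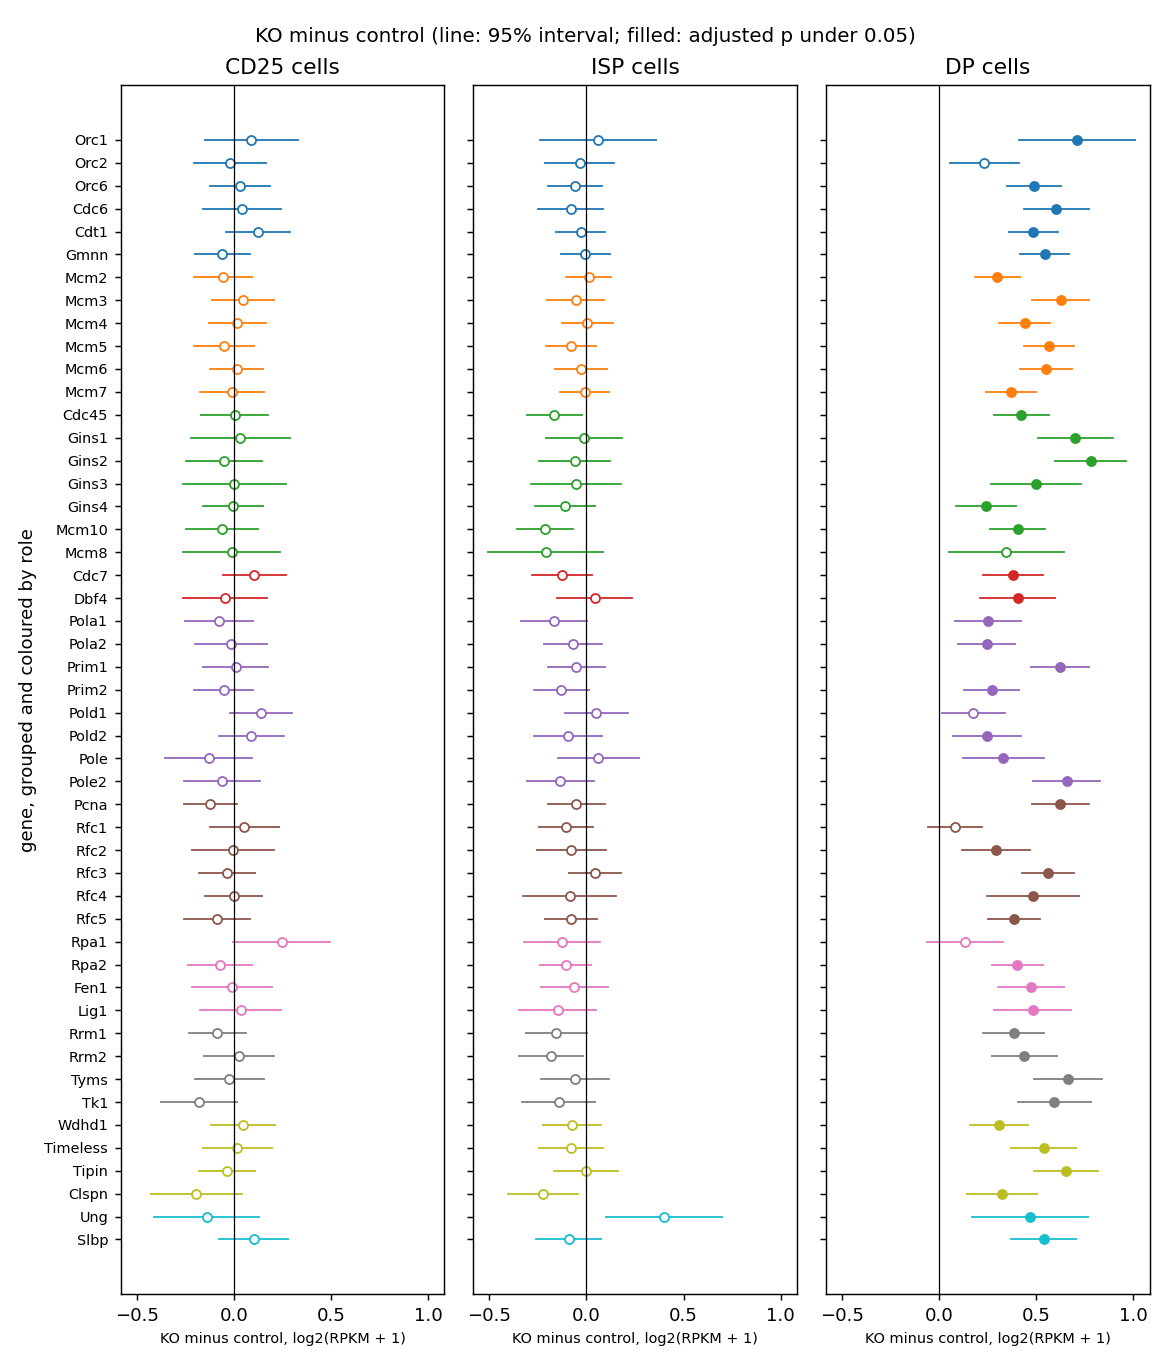
KO minus control for each replication gene (rows, coloured by role) in CD25, ISP and DP cells, on the log2(RPKM + 1) scale. Points are estimates, lines 95% intervals, and filled points passed the test. In CD25 and ISP cells 0 points are filled, and in DP cells all 49 lie to the right of 0 and 44 are filled.

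Among the licensing genes 5 of 6 rose in DP KO cells, with a median of 0.52. Orc1, a subunit whose protein varies with the cell cycle in human cells, had 8.42 and 8.80 RPKM in KO libraries and 5.90 and 4.00 RPKM in control libraries (0.71 ± 0.14, adjusted p = 0.0044 in limma). The control libraries differed from each other by more than the KO libraries did. Orc2, another subunit, had 19.9 and 22.0 RPKM in KO and 16.46 and 18.97 RPKM in control libraries and was not called (0.23 ± 0.08). Gmnn had 169.5 and 182.2 RPKM in KO libraries, against 120.1 and 120.5 RPKM in control libraries (0.54 ± 0.06, adjusted p = 2.7e-04 in limma). Orc6, the smallest subunit, had 75.7 and 80.9 RPKM in KO and 56.5 and 54.4 RPKM in control libraries.

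All 6 ring genes rose, by 0.30 (Mcm2) to 0.63 (Mcm3). Mcm3 had 112.8 and 122.0 RPKM in KO and 72.1 and 79.4 RPKM in control libraries (0.63 ± 0.07, adjusted p = 2.9e-04 in limma). The difference of Mcm6 was 0.55 ± 0.06 (adjusted p = 3.0e-04). Mcm7 had 187.4 and 189.8 RPKM in KO and 142.8 and 148.5 RPKM in control libraries. Of their 7 partners 6 rose, and Gins2 had the largest difference of all 49 genes. Gins2 (chr8:120578633-120589304, - strand) had 32.4 and 36.8 RPKM in KO libraries and 19.9 and 19.4 RPKM in control libraries, a fold of 1.76 and a log2 difference of 0.78 ± 0.08 (adjusted p = 2.8e-04 in limma). Gse1, which lies on the other strand and overlaps 67.3% of the exonic bases of Gins2, went the other way (27.5 and 21.6 RPKM in KO, 35.9 and 35.6 RPKM in control libraries). Gins1 rose by 0.70, Gins3 by 0.50 and Gins4 by 0.24. Mcm8, which is not a part of this helicase, did not pass (0.35 ± 0.14).

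The kinase genes rose by a like amount, 0.38 ± 0.07 for Cdc7 (adjusted p = 0.0035) and 0.40 ± 0.09 for Dbf4 (adjusted p = 0.0086 in limma). Cdc7 had 55.4 and 61.6 RPKM in KO and 44.5 and 44.9 RPKM in control libraries. For Dbf4 the call was lost when DP KO library 2 was left out, at an adjusted p of 0.089.

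The polymerase genes had the lowest median of the larger groups, 0.26, although 7 of 8 rose. Prim1 had 130.02 and 146.4 RPKM in KO and 87.9 and 90.5 RPKM in control libraries (0.62 ± 0.07, adjusted p = 2.9e-04 in limma). Pole2, a subunit of the leading-strand polymerase, had 14.6 and 15.3 RPKM in KO and 9.13 and 9.03 RPKM in control libraries (0.66 ± 0.08, adjusted p = 3.8e-04). The other 6 genes had smaller differences, 0.24 to 0.33 for the 5 that passed and 0.18 ± 0.07 for Pold1, which did not. Pold1 had 33.1 and 37.6 RPKM in KO and 31.3 and 30.9 RPKM in control libraries.

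Pcna had 308.2 and 360.1 RPKM in KO libraries, against 215.2 and 216.0 RPKM in control libraries (0.63 ± 0.07, adjusted p = 2.9e-04 in limma). Of the loader, Rfc2, Rfc3, Rfc4 and Rfc5, which are the small subunits, rose by 0.29 to 0.56. Rfc1, the large subunit, had 39.1 and 38.8 RPKM in KO and 36.3 and 37.3 RPKM in control libraries, with a 95% interval from -0.06 to 0.22. Rpa1, likewise a large subunit, had an interval from -0.06 to 0.33, while Rpa2 rose by 0.40. Lig1 had 60.05 and 70.02 RPKM in KO and 43.6 and 48.8 RPKM in control libraries (0.48 ± 0.09, adjusted p = 0.0038 in limma). Fen1 rose by 0.47, but Gm10143 on the other strand overlaps 78.8% of its exonic bases and the counting strand is not stated.

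All 4 nucleotide supply genes rose. Tyms had 80.6 and 95.03 RPKM in KO and 53.3 and 56.6 RPKM in control libraries (0.66 ± 0.08, adjusted p = 4.0e-04 in limma). Its pseudogene Tyms-ps was at 0.18 to 1.07 RPKM in all libraries. Rrm2 had 607.1 and 699.3 RPKM in KO libraries, against 476.7 and 483.8 RPKM in control libraries (0.44 ± 0.08, adjusted p = 0.0025 in limma). Tk1 rose by 0.59 and Rrm1 by 0.38, to 143.2 and 169.1 RPKM in KO libraries against 116.6 and 121.5 RPKM in control libraries. Among the genes that protect forks, Tipin, the partner of Timeless, had 238.4 and 285.4 RPKM in KO and 163.6 and 167.1 RPKM in control libraries (0.65 ± 0.08, adjusted p = 3.1e-04 in limma). Timeless rose by 0.54, Clspn by 0.33 and Wdhd1, which links the helicase to polymerase alpha, by 0.31. Per length, Tipin stood at 11.2 to 14.7 times the level of Timeless in every library. Slbp rose by 0.54 ± 0.08 (adjusted p = 9.7e-04) and Ung by 0.47 ± 0.14 (adjusted p = 0.030 in limma). The call on Ung was lost when 1 DP library was left out, at an adjusted p of up to 0.25.

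The KO libraries were not alike. DP KO library 2 exceeded DP KO library 1 for 40 of the 49 genes, with a median difference between them of 0.10 on the log2 scale, against 0.0049 between the DP control libraries. Such a shift was not confined to DP KO, since CD25 control library 2 exceeded library 1 for 39 of the 49 genes, by a median of 0.088. Other measures moved with the genotype in DP cells too. Cd4 was 249.5 and 190.6 RPKM in DP KO libraries and 344.1 and 338.0 RPKM in DP control libraries, and Cd8b1 was 2274 and 2042 RPKM in DP KO against 2506 and 2495 RPKM in DP control libraries. DP KO library 2 was thus lowest in both and highest in most replication genes. The summed RPKM of 9 myeloid markers was 69.9 and 76.2 in DP KO libraries and 19.9 and 13.0 in DP control libraries, mostly from Lyz2, with Csf1r at 0.76 and 2.23 RPKM in KO and 0.34 and 0.32 RPKM in control libraries and Elane at 0 in KO library 2 and both control libraries. 3 of the 8 myeloid markers tested were called higher in DP KO cells. The myeloid sum was also higher in ISP KO libraries (44.0 and 63.1) than in ISP control libraries (12.2 and 12.3), where no replication gene was called. The sum of 8 NK and innate lymphoid markers was 177.2 and 217.0 in DP KO and 126.2 and 112.0 in DP control libraries, most of it from Gzma (145.9 and 187.1 RPKM in KO, 103.4 and 93.2 RPKM in control libraries). Of the 7 NK and innate lymphoid markers tested, 2 were called higher and 0 lower, 4 of the differences were negative, and their median was -0.04. The part of these in the replication gene result was not tested.

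The last comparison was of the step itself, whether the difference between DP and ISP cells was the same in both genotypes. It was smaller in KO. In KO libraries 45 of 49 genes fell between ISP and DP, with a median of -0.70, where 28% of all genes were called lower and 27.8% higher. In control libraries all 49 fell, with a median of -1.16, where 32.4% of all genes were called lower and 31.5% higher. The mean RPKM in DP was 25.6% to 97.2% of that in ISP in KO, with a median of 60.9%. In control it was 22.1% to 71.0%, with a median of 44.5%. The 4 genes that did not pass in KO were Gins3 (-0.06 ± 0.11), Cdc7 (-0.08 ± 0.07), Dbf4 (-0.12 ± 0.09) and Rrm2 (-0.04 ± 0.08). The sign for Rrm2 turned to 0.06 without DP KO library 1.

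**Figure D4:**
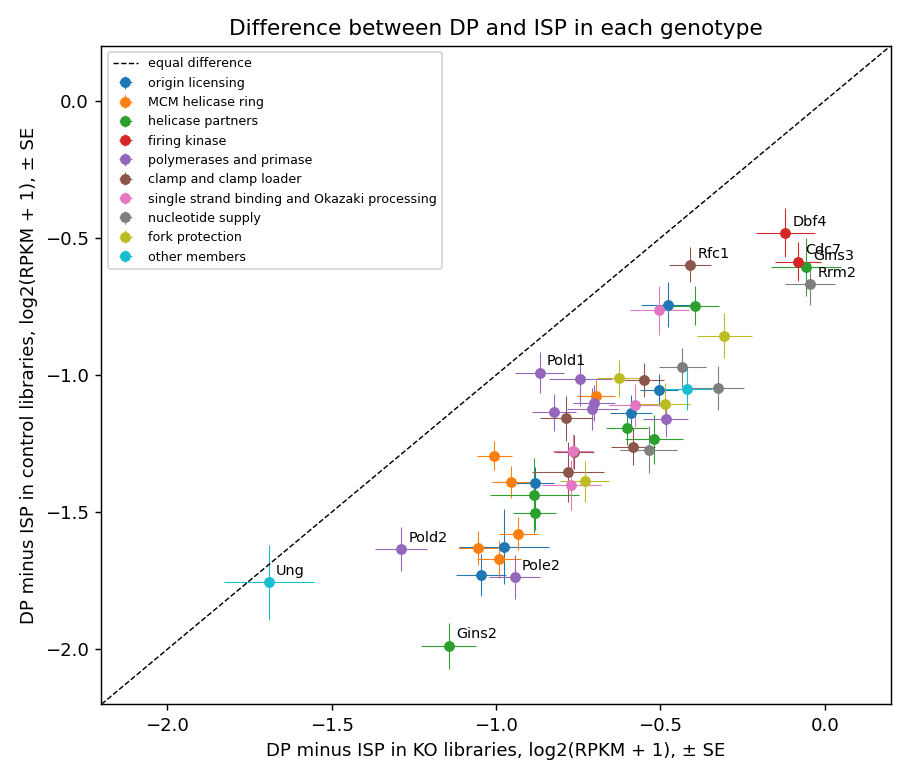
DP minus ISP of each replication gene in KO libraries (horizontal) and in control libraries (vertical), log2(RPKM + 1), with SE bars and colours for roles. All 49 points lie below the dashed line of equal difference, Ung nearest to it, and Gins3, Cdc7, Dbf4 and Rrm2 lie close to 0 in KO.

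The interaction of genotype with the step tests this difference directly. It was called for 32 of the 49 genes, all in the direction of a smaller fall in KO, where 3.67% of all genes were called higher and 0.522% lower. All 49 estimates were positive, with a median of 0.55 against 0.01 over all genes. The count rested on single libraries: it was 13 without ISP KO library 2, and 20 without ISP control library 2 or without DP control library 1. It was 3 without an intensity trend in the variance. Gins2 had the largest interaction (0.84 ± 0.12, adjusted p = 0.0081), followed by Pole2 (0.79 ± 0.11, adjusted p = 0.0081), Tk1 (0.74 ± 0.12, adjusted p = 0.012) and Tyms (0.72 ± 0.11, adjusted p = 0.010 in limma).

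By role, the interaction was called for all 4 nucleotide supply genes and all 4 fork protection genes, for 5 of 6 ring genes and for 4 of 6 licensing genes. It was called for 3 of 8 polymerase genes, 3 of 6 clamp and loader genes and 4 of 7 helicase partners. Nucleotide supply genes kept a median of 77.0% of their ISP level in DP KO cells and 49.4% in DP control cells. The ring kept 50.7% in KO and 35.5% in control. The 2 kinase genes kept 93.3% in KO and 68.6% in control. Ung (0.07 ± 0.19, adjusted p = 0.88) and Pold1 (0.12 ± 0.10, adjusted p = 0.53 in limma) had the smallest interactions. For Ung the interval ran from -0.36 to 0.49, below the median of 0.55 over the members, on a scale that understates the change of low genes. Over other settings with groups by title the estimate for Ung ran from -0.078 to 0.20.

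**Figure D5:**
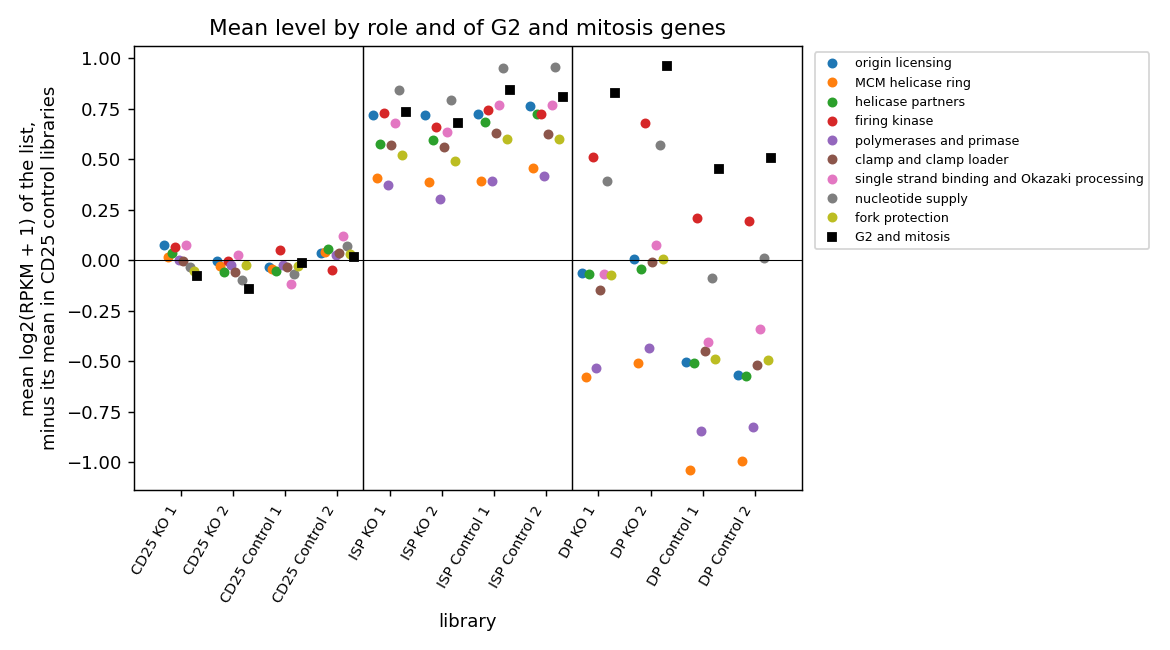
Mean log2(RPKM + 1) of the replication genes of each role (coloured circles) and of 22 G2 and mitosis genes (black squares) in each library, minus the mean of the 2 CD25 control libraries. All circles stand above 0 in ISP libraries. In DP control libraries the firing kinase is above 0, nucleotide supply is close to 0 and all other roles are below it, and in both DP KO libraries each role is higher than in both DP control libraries.

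Genes around the members gave a frame for these counts. Of 25 replication factors outside the list 15 were called higher and 3 lower in ISP against CD25 cells, 2 higher and 19 lower in DP against ISP cells, and 9 higher and 1 lower in DP KO against DP control cells. Their median in the genotype comparison was 0.21. Over all genes tested 33.1% were called higher and 30.9% lower in ISP against CD25 cells. These shares were 35.6% and 35% in DP against ISP cells, and 14.1% and 7.78% in DP KO against DP control cells. Of 26 other genes of nucleotide metabolism 18 were higher and 2 lower in DP KO cells, with a median of 0.35. Of 13 genes of chromatin assembly at the fork 11 were higher and 0 lower, with a median of 0.34.

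The 22 genes of G2 and mitosis, which act after replication is complete, took another course over the stages. All 22 were higher in ISP than in CD25 cells (median 0.85), as the replication genes mostly were. Between DP and ISP cells only 8 fell and 3 rose, with a median of -0.08, while all 49 replication genes fell. In KO cells 11 of the 22 rose and 0 fell at this step, and in control cells 0 rose and 19 fell. In DP cells 20 of 22 were higher in KO than in control, with a median of 0.41, close to the 0.44 of the replication genes, and 17 had a called interaction. The shares of all genes called in each of these comparisons are those given above. A test of the difference between the lists was not made.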

How the data were processed

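RNA was sequenced from 12 libraries in 6 groups of 2, grouped by title. The authors deposited RPKM values per gene. BWA and GRCm38 are named in the submitters' processing notes, with the counter, annotation, versions and filters not given in the sources used here. Median-of-ratios factors of the deposited RPKM deviated from 1 by at most 2.2e-10, so the values were already on that scale. Low values stepped in whole reads: 100.0% of 169595 values above 0 came out whole within 0.02 reads.

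Tested values were log2(RPKM + 1), in limma 3.58.1 (R 4.3.3) with a trend of the variance on intensity. A gene was tested if 2 or more libraries reached 1 RPKM. All 12 libraries were fitted in 6 groups (11303 genes), except KO against control in CD25 cells, which used its own 4 (10636 genes). Population contrasts average the genotypes. Called means a Benjamini-Hochberg adjusted p under 0.05. The procedure was tested on simulated data. The SE is that of limma. Intervals are at 95%. With 2 libraries against 2, as in the genotype contrasts, no exact test over samples can pass the threshold. No exact test was run for any contrast.

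Members and lists were chosen with earlier results of these data known. By rule, values are given for the 2 members of each role with the highest mean RPKM and the one with the largest genotype difference in DP; other values shown belong to members that led a comparison or were not called in it. Promoters are from RefSeq, GRCm38.p6, and gene overlaps from an annotation of GRCm38. Labels give embryonic day 16.5, but 17.5 where they describe the treatment. 0 value columns were left unmapped, and 0 pairs of libraries were identical. Alternatives were other pseudocounts, scalings, filters, groupings and left-out libraries, and voom on the recovered reads and DP against CD25 within each genotype, both chosen after seeing the data. Tables and plots used Python 3.11.15, pandas 2.3.3, numpy 2.4.6 and matplotlib 3.10.9.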

Additional observations from a re-analysis of the deposited data

Results flagged for a closer look

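The difference between genotypes was not the same in DP as in ISP cells for 32 of the 49 replication genes, by the interaction term of limma at an adjusted p under 0.05. The largest of these interactions were those of Gins2 (0.84), Pole2 (0.79), Tk1 (0.74) and Tyms (0.72) on the log2(RPKM + 1) scale, each with KO above control in both DP libraries. The cause was not tested. Groups of 2 libraries are too small to look for single libraries that stand apart.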

How the results depend on the processing

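Grouping by sequencing library name moved the most. By name, the anti-CD3 KO groups hold libraries titled DP and the control groups libraries titled ISP. The genotype contrasts by name therefore set DP against ISP by title. ISP against CD25 then had 17 members higher and 7 lower (Mcm6 -0.48, Mcm8 -0.57, Pold1 -0.38), DP against ISP 0 lower (Cdc6 0.057, Dbf4 0.014), also 0 in KO and 0 in control, and DP against CD25 8 lower. KO against control had 45 lower in ISP (Ung -1.71), and in DP 0 higher and 45 lower, with Orc1 -1.14, Orc2 -0.68, Gmnn -0.77, Mcm3 -1.41, Mcm6 -1.37, Gins2 -1.55, Mcm8 -1.003, Cdc7 -0.37, Dbf4 -0.38, Prim1 -0.88, Pold1 -0.94, Pole2 -1.33, Pcna -0.96, Rfc1 -0.53, Rpa1 -0.69, Lig1 -1.20, Rrm2 -0.43, Tyms -0.74, Tipin -1.10, Ung -1.74 and Slbp -0.83. The interaction was called for 0 members (Pold1 -0.015, Tyms -0.11, Tk1 -0.22, Ung -0.030). Which of title and library name is right was not tested beyond the markers, which bear on the population and not on the genotype. In the 4 anti-CD3 libraries whose names give the same population as the title, 45 members were lower in DP than in ISP.

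Without an intensity trend the interaction was called for 3 members, and without a filter for 25. With a pseudocount of 5 that of Ung was -0.078. On plain total scaling 1 member was lower in ISP than in CD25, and Mcm8 (-9.5e-04) and Pold1 (-0.019), not called either way, changed sign. Voom on recovered reads, chosen after seeing the data, called the interaction for 37 members. The tests made for raw counts that were planned were not run, since the deposited values are RPKM. Over left-out libraries the interaction was called for 13 to 34 members, KO against control in DP for 33 to 44, Pola1 between ISP and CD25 ranged from -0.055 to 0.029, the interaction of Ung from -0.091 to 0.22, and Rrm2 between DP and ISP in KO from -0.15 to 0.057. Same-numbered libraries deviated together little (correlations of -0.07 to 0.12), which cannot tell whether they share an embryo or a culture. With a replicate block 45 members were higher in DP KO, 32 had a called interaction, 49 were lower in DP than in ISP and 45 higher in ISP than in CD25. For DP against CD25, control libraries alone gave 3 members higher, a split also chosen after seeing the data. Orc1, Ung and Mcm8 had the largest SE of KO against control in DP, 0.14 each.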
